A study of Mus musculus with 6 samples.

Results

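The surfactant and alveolar type 2 genes described here are Sftpa1, Sftpb, Sftpc, Sftpd, Abca3, Lamp3, Slc34a2, Napsa, Lpcat1 and Etv5, 10 of the 56941 genes in the count table. They were chosen by name as genes of surfactant proteins, of lamellar bodies and of the cells that make them, and each matched 1 Ensembl gene ID. All 10 passed the filter on low counts. RNA was sequenced from CD31-selected lung cells of mouse pups on postnatal day 7, in 3 libraries from pups kept in room air (21% oxygen) and 3 from pups kept in hyperoxia (75% oxygen) from postnatal day 0. The labels give no strain, sex or genotype for either group, and do not say whether a library held 1 lung or several or whether libraries came from separate animals. The p-values below therefore cover library-to-library spread, which may be technical. The cells were taken from minced, enzyme-digested lung with CD31 microbeads on a magnetic column, and CD31 is the endothelial adhesion molecule encoded by Pecam1.

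Alveolar type 2 cells are the epithelial cells that make pulmonary surfactant, the lipid and protein film that lowers surface tension in the alveolus. The lipid is assembled in lamellar bodies, which also carry the small hydrophobic proteins SP-B and SP-C, while SP-A and SP-D are collectins that bind microbes. Alveolar type 2 cells also divide and give rise to the flat alveolar type 1 cells that form most of the gas exchange surface. Most of the 10 genes are known as epithelial genes of the lung, while Lpcat1 and Etv5 are also used by other cells, and which cells in these libraries gave the RNA was not measured. In such bulk RNA, fewer cells of a type and less RNA per cell cannot be told apart.

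The libraries held 39379793 to 42343192 counts each, and the endothelial identity on the label was present: all 10 endothelial markers were tested and Pecam1 stood at 1932 to 3109 CPM (counts relative to the TMM-adjusted library size, the unit of all levels below unless another is named). Room air 3 had the lowest level of all 10 endothelial markers among the room air libraries, and hyperoxia 2 the lowest of all 10 among the hyperoxia libraries. Summed over the 10 markers the endothelial level was 17838, 17185 and 12698 CPM in room air 1 to 3 and 14898, 10844 and 14113 CPM in hyperoxia 1 to 3. Room air 3 was at the same time the highest room air library for all 10 surfactant genes, and the highest of all 6 libraries for 8 of them. This was not particular to them: it was also the highest room air library for all 15 other alveolar type 2 markers and 9 of 10 alveolar type 1 markers. In summed level it was also the highest room air library for the pan-epithelial, airway, macrophage, fibroblast and blood cell markers. For the surfactant genes whose value moved by over 1.5 times or changed sign or call without room air 3, the value without it is given below.

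Upstream sequences are shown for 3 of the genes because they hold letters of motifs of factors known to act on surfactant genes. They are the 250 bases before the start site in RefSeq (GRCm38.p6), 5′ to 3′ on the gene's strand, with motif letters in capitals. Sftpa1 lies at chr14:41131538-41131787 on the plus strand, Sftpb at chr6:72304360-72304609 on the plus strand and Lamp3 at chr16:19706366-19706615 on the minus strand.
Sftpa1: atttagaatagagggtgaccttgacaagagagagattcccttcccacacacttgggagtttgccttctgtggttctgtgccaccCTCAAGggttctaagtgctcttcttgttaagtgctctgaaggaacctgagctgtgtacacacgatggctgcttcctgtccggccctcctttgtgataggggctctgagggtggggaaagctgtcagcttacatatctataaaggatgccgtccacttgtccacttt
Sftpb: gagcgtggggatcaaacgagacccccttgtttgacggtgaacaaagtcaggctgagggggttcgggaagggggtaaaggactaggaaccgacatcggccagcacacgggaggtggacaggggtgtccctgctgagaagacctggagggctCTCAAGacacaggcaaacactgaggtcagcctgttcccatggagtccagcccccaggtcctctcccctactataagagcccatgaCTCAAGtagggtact
Lamp3: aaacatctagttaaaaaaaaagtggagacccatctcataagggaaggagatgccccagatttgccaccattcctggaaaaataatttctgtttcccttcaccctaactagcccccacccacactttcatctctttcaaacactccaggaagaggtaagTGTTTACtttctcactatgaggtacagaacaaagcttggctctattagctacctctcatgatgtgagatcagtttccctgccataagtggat
The capitals mark CTCAAG, a core of the NKX2-1 motif, in Sftpa1 and Sftpb, and TGTTTAC, a FOXA motif, in Lamp3. Both strands were searched, and 7 of the 10 genes had an entry, with 8 windows because Etv5 has 2 start sites. CTCAAG was found in 2 of the 8 windows, against 13.3% of all 32851 windows of this length. TGTTTAC was found in 2 of the 8, Lamp3 and Etv5, against 3.17% of all windows. The ETS motif CCGGAA was found in 1 of the 8, Abca3, against 12.0% of all windows. A match of letters is a description of the sequence and does not show binding.

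No surfactant gene passed the test for a change in hyperoxia. None of the 10 was called between hyperoxia and room air by edgeR's quasi-likelihood test at an adjusted p below 0.05, where 11.2% of the 17072 genes tested were called. Of the 10 genes, 2 had an unadjusted p below 0.05, Sftpa1 and Slc34a2, and DESeq2 called 1, Sftpa1, where it called 16.2% of all genes tested. The median log2 fold change was -0.06, beside -0.01 over all genes tested, with 3 genes above 0 and 7 below. Adjusted p-values below are from edgeR's test over all 17072 genes, and mean levels are given ± SD with n = 3.

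Sftpc encodes SP-C, a hydrophobic protein made only by alveolar type 2 cells in the lung. Its level was 9775, 7650.4 and 12970 CPM in room air 1 to 3 and 8652, 10875 and 9455 CPM in hyperoxia 1 to 3. The groups overlapped, with both the lowest and the highest library in room air. The log2 fold change was -0.07 (SE 0.22, 95% limits -0.55 to 0.41, adjusted p = 0.882), and 0.15 without room air 3 (adjusted p = 0.709). Sftpc took 0.762% to 1.35% of all counts in a room air library and 0.843% to 1.11% in a hyperoxia library. Per exon length it was the first of the 52000 genes with a length, at 36102 ± 9426 in room air and 32924 ± 4019 in hyperoxia (counts per kilobase, scaled to the same sum in each library), above the endothelial gene Cdh5 at 4022 and 2931.

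Sftpb encodes SP-B, which packs surfactant lipid and is needed for lamellar bodies to form. Room air 1 to 3 had 1914, 1733 and 2404 CPM, and hyperoxia 1 to 3 had 1973, 2554 and 2242 CPM. These values overlapped, and the log2 fold change was 0.16 (SE 0.17, adjusted p = 0.61). It was 0.30 without room air 3 (adjusted p = 0.27) and 0.066 without hyperoxia 2 (adjusted p = 0.889).

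Sftpa1, which encodes the collectin SP-A, had the most negative fold change of the 10. Room air 1 to 3 had 917, 982 and 1277 CPM, and hyperoxia 1 to 3 had 879, 728 and 774 CPM. Every hyperoxia library lay below every room air library, the only one of the 10 genes for which the groups did not overlap, while 30.9% of all genes tested had groups apart 16.5% with hyperoxia higher and 14.4% with hyperoxia lower. The log2 fold change was -0.42 (SE 0.16, 95% limits -0.76 to -0.07), with an unadjusted p of 0.0236 and an adjusted p of 0.124 in edgeR's test. DESeq2 gave -0.43 with an adjusted p of 0.0246. In edgeR's test the log2 fold change was -0.26 without room air 3 (adjusted p = 0.279) and -0.21 without room air 3 and hyperoxia 2 (adjusted p = 0.274).

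Sftpd, which encodes the collectin SP-D, had 177, 195 and 302 CPM in room air 1 to 3, against 270.3, 268 and 250.2 CPM in hyperoxia 1 to 3. Room air 3 lay above every hyperoxia library and the other room air libraries lay below them. The log2 fold change was 0.22 (SE 0.18, adjusted p = 0.485). Without room air 3 it was 0.49 with an adjusted p of 0.0203, and without room air 3 and hyperoxia 2 it was 0.47 with an adjusted p of 0.021.

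**Figure D1:**
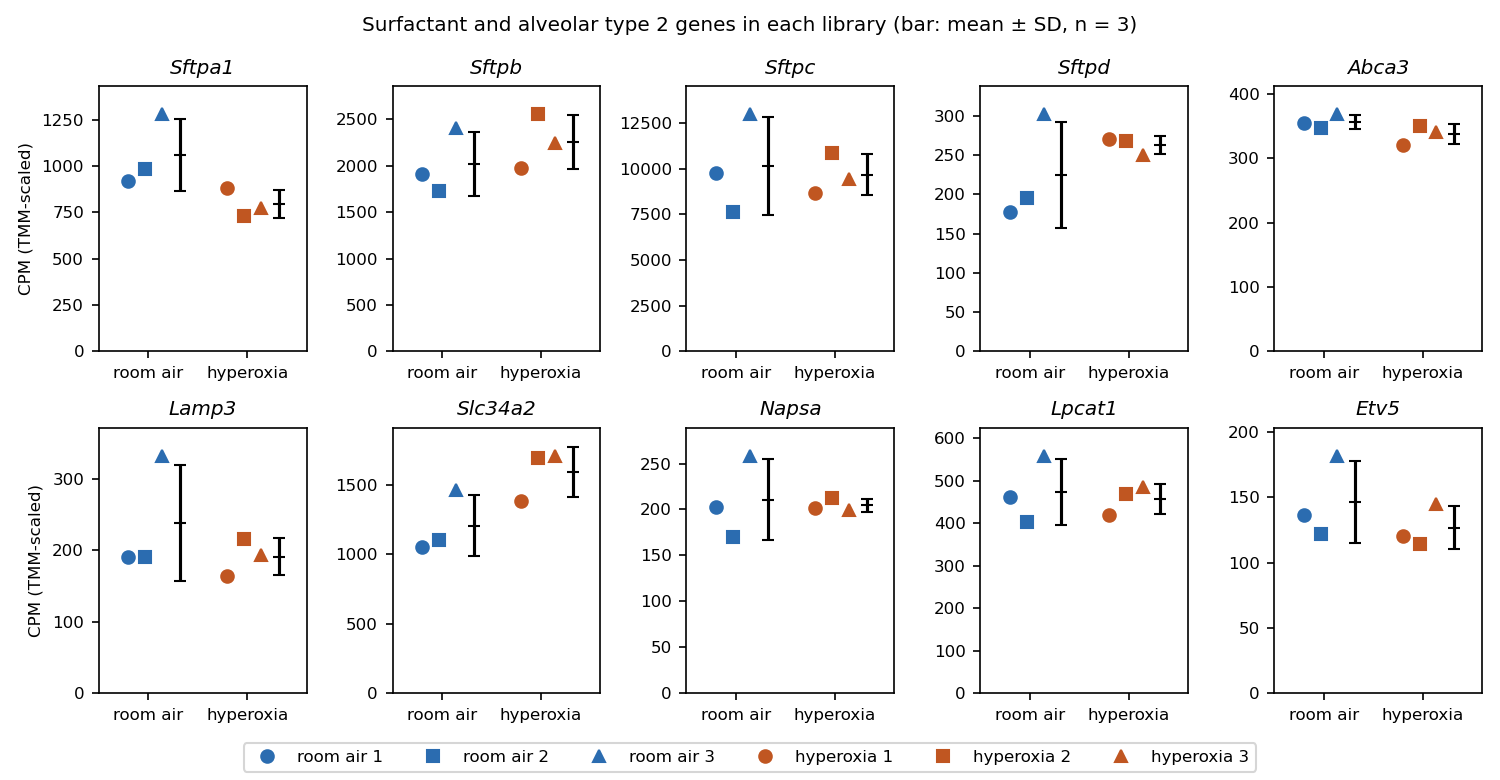
Level of each of the 10 genes in CPM (y axis, linear, from 0) in the 3 room air and 3 hyperoxia libraries, with points for libraries and bars for the mean and SD (n = 3). Room air 3 is the highest room air point in all 10 panels, and Sftpa1 is the only panel in which the groups do not overlap.

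Slc34a2, the phosphate transporter of the alveolar type 2 cell surface, had the most positive fold change. Room air 1 to 3 had 1057, 1106 and 1462 CPM, and hyperoxia 1 to 3 had 1386, 1692 and 1706 CPM. Room air 3 overlapped the hyperoxia libraries and the other room air libraries lay below them. The log2 fold change was 0.40 (SE 0.17, 95% limits 0.03 to 0.77), with an adjusted p of 0.16 in edgeR's test. Without room air 3 it was 0.56 with an adjusted p of 0.0341, and without room air 3 and hyperoxia 2 it was 0.50 with an adjusted p of 0.0279. It went the other way without room air 1, to 0.30 (adjusted p = 0.391), and without room air 2, to 0.34 (adjusted p = 0.373).

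Abca3, the lipid pump of the lamellar body membrane, varied least. Room air 1 to 3 had 355, 347 and 368 CPM, against 320.4, 351 and 341 CPM in hyperoxia 1 to 3, with overlapping groups and a log2 fold change of -0.08 (SE 0.11, 95% limits -0.32 to 0.16, adjusted p = 0.70). Lamp3, a glycoprotein of the lamellar body membrane, had 191, 191 and 332 CPM in room air 1 to 3, against 164, 216 and 194 CPM in hyperoxia 1 to 3. Its room air mean rested on room air 3: the log2 fold change was -0.31 (SE 0.21, adjusted p = 0.386) with all libraries and -0.00019 without that library.

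Napsa, the protease that trims the SP-B precursor, averaged 210.4 ± 44.0 CPM in room air, against 204.5 ± 6.90 CPM in hyperoxia. Lpcat1, which makes the disaturated phosphatidylcholine of surfactant, was at 474 ± 77.7 and 457 ± 34.5 CPM. Etv5, an ETS factor that maintains alveolar type 2 identity, was at 146 ± 31.1 and 127 ± 16.3 CPM. The groups overlapped for each of these, with log2 fold changes of -0.04 (SE 0.15), -0.05 (SE 0.14) and -0.21 (SE 0.16). Without room air 3 these were 0.13, 0.078 and -0.026, so the signs of Napsa and Lpcat1 turned and the value of Etv5 rested on that library. Of the exonic bases of Napsa, 18.9% overlap a gene on the other strand, and 9.75% of those of Abca3, in GENCODE M21. The strand setting of the counting is not given in the sources used here, so reads of those partners cannot be told apart.

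The 10 genes together took 1.49%, 1.28% and 2.09% of all counts in room air and 1.40%, 1.78% and 1.56% in hyperoxia. Sftpb made up 12.6%, 13.4% and 12.0% of that sum in room air and 13.7%, 14.6% and 14.2% in hyperoxia. Slc34a2 made up 6.96%, 8.57% and 7.27% in room air and 9.64%, 9.68% and 10.8% in hyperoxia. Sftpb, Slc34a2 and Sftpd had a higher share in every hyperoxia library than in any room air library, and Lamp3 a lower one. Set against the same sum, 11.7% of all genes tested were higher and 6.48% lower in this way. Sftpa1 counts per Sftpb count were 0.479, 0.567 and 0.531 in room air and 0.445, 0.285 and 0.345 in hyperoxia, with groups apart. That ratio was chosen after values were seen, and the share of all genes apart per Sftpb count was not computed. With 3 libraries against 3 the smallest p an exact two-sided permutation test can give is 0.1, and that is its value here. Any ratio with groups apart gives that value, so it adds no support.

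Alveolar type 1 markers were higher in the same libraries. Of 10 alveolar type 1 markers, 9 were higher in hyperoxia and none lower, with a median log2 fold change of 1.24. Over all genes tested 6.77% were higher and 4.41% lower, the shares to set beside this and each later list count from all 6 libraries with TMM. The lists were chosen with earlier results of these data known. Ager, the receptor for advanced glycation end products on alveolar type 1 cells, rose by 1.24 on the log2 scale (SE 0.19, adjusted p = 0.0027), with means of 968 ± 212 and 2284 ± 399 CPM. Spock2 rose by 1.53 (adjusted p = 0.000402) and Akap5 by 1.80 (adjusted p = 0.000586) on the log2 scale. Hopx rose by 1.33 (adjusted p = 0.00215) and Aqp5 by 1.28 (adjusted p = 0.0020), and Igfbp2 was not called (0.50, adjusted p = 0.251). Of the exonic bases of Hopx, 27.2% overlap a gene on the other strand, so reads of that partner cannot be told apart. Of 13 pan-epithelial markers 8 were higher (5 without room air 1, room air 2 or hyperoxia 3), among them the tight junction gene Cldn4, which rose from 7.57 ± 0.980 to 31.2 ± 4.31 CPM (adjusted p = 9.62e-05). Epcam, an adhesion molecule of all epithelial cells, was at 42.0 ± 12.1 and 65.8 ± 15.7 CPM and was not called (adjusted p = 0.0757).

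**Figure D2:**
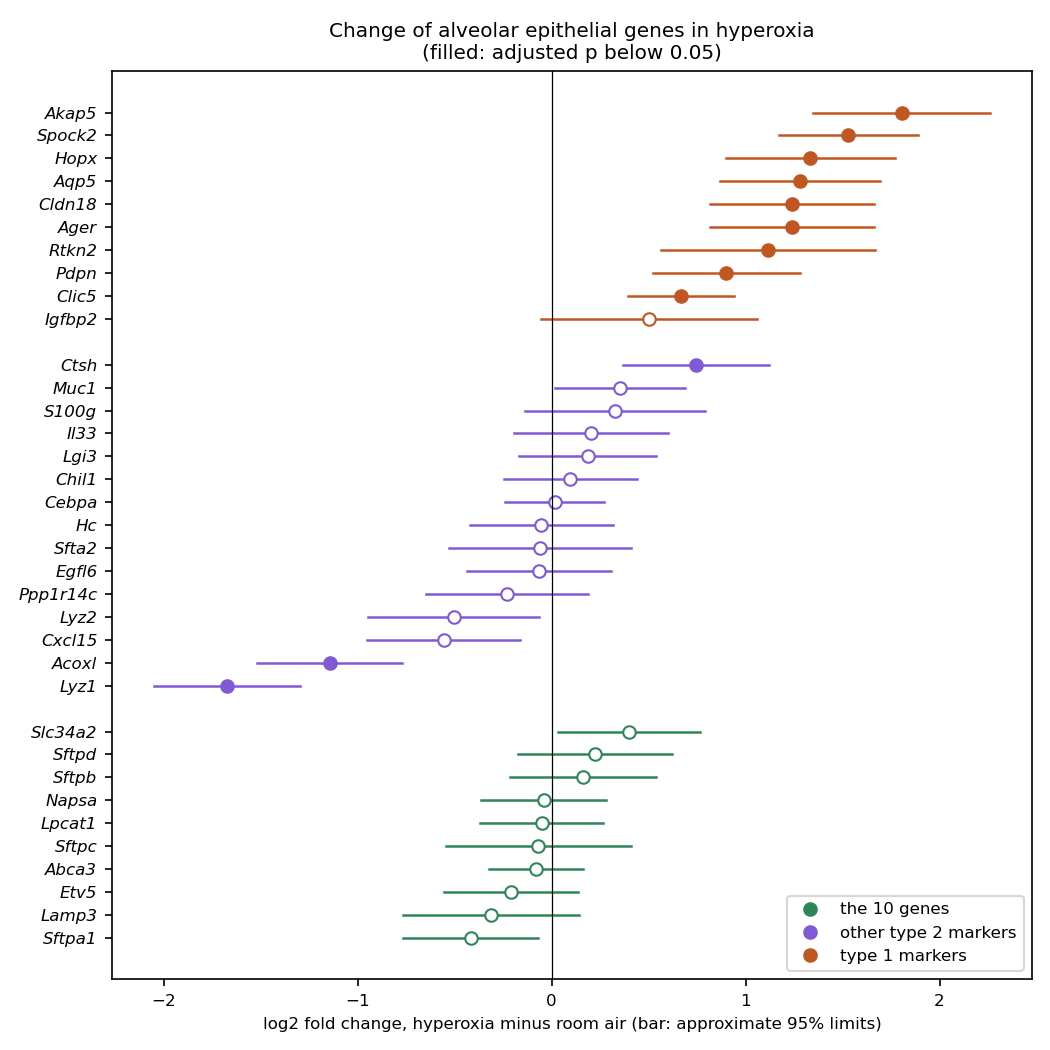
Log2 fold change, hyperoxia minus room air (x axis), of single genes with approximate 95% limits, filled where the adjusted p was below 0.05. The 10 surfactant and alveolar type 2 genes lie between -0.42 and 0.40 and none is filled, while 9 of the 10 alveolar type 1 markers are.

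Set against Ager, which itself rose, the surfactant genes were lower in hyperoxia, as were most genes tested. Sftpc counts per Ager count were 12.2, 8.51 and 10.8 in room air and 4.20, 3.96 and 4.62 in hyperoxia, a ratio of group means of 2.46. All 10 genes were lower per Ager count in every hyperoxia library than in any room air library, and so were 81.4% of all genes tested, with 0.879% higher. Per Epcam count 8 of the 10 were lower in this way, all but Sftpd and Slc34a2, against 34.9% of all genes tested, with 2.50% higher. Sftpc counts per Epcam count were 249, 242 and 235 in room air and 159, 129.9 and 159 in hyperoxia. For these ratios the exact two-sided permutation p of each gene with groups apart was 0.1, the smallest this design can give. Any gene with groups apart gives that value in this design, so it adds no support.

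**Figure D3:**
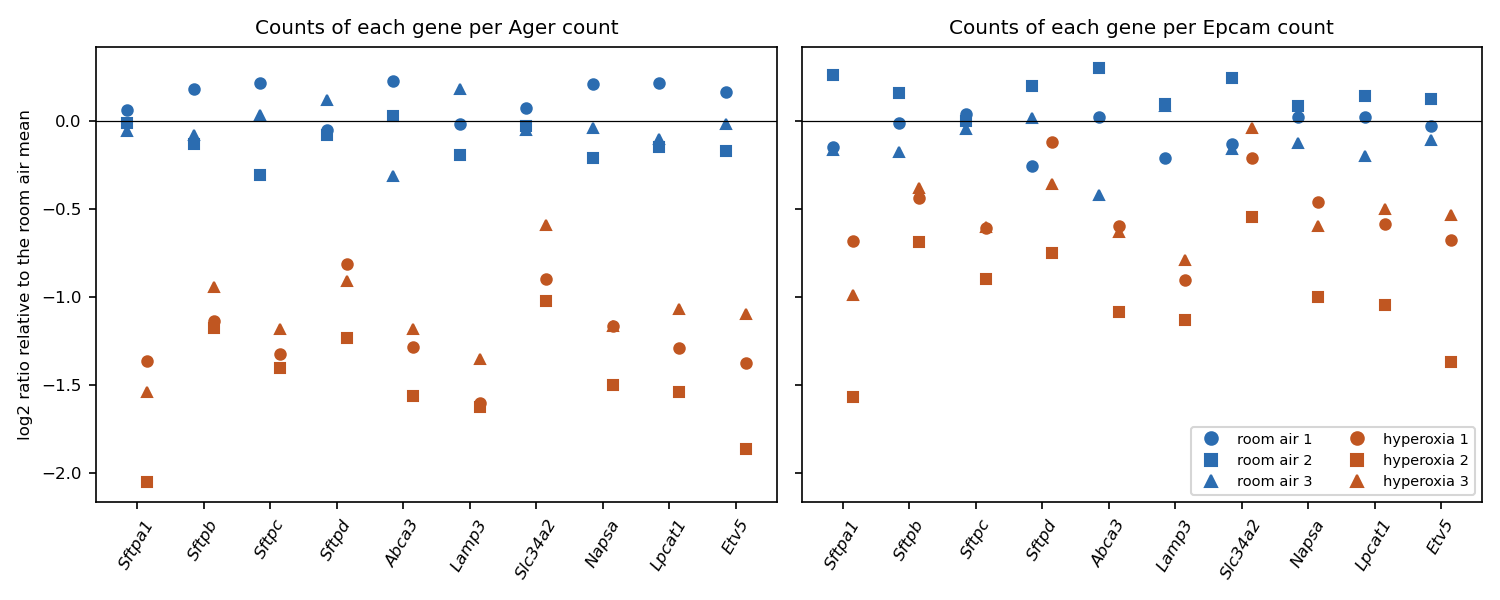
Counts of each of the 10 genes per Ager count and per Epcam count in each library, as the log2 ratio relative to the room air mean (y axis). Per Ager count all 10 genes are lower in every hyperoxia library, as are 81.4% of all genes tested. Per Epcam count Sftpd and Slc34a2 overlap between the groups, and 34.9% of all genes tested are lower in every hyperoxia library.

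In a fit scaled to epithelial content, each library was set to the geometric mean of Epcam, Cdh1, Cldn7, Esrp1 and Grhl2 in place of TMM. That scaling moved the median log2 fold change of all genes tested to -0.68, and the median of the 10 surfactant genes was -0.71, so they lay close to the typical gene. Of the 10, 3 were called lower, Sftpa1 (-1.03, adjusted p = 0.0329), Lamp3 (-0.95, adjusted p = 0.0327) and Etv5 (-0.84, adjusted p = 0.0472), where 30.8% of all genes tested were called, 29.7% lower and 1.14% higher. The counts depended on the reference and on single libraries, and so did the share of all genes called lower. With all 13 pan-epithelial markers as the reference 9 of the 10 were lower, beside 69.4% of all genes tested, and with Epcam alone 0, beside 15.8%. With hyperoxia 1 left out 5 were lower, beside 48.2% of all genes, and with room air 3 left out 4, beside 47.6%. With room air 1, room air 2, hyperoxia 2 or hyperoxia 3 left out 0 were lower, beside 5.28% to 8.23% of all genes. With all libraries and the first reference, 1 of the 10 alveolar type 1 markers was called higher and 0 lower. Their median log2 fold change was 0.58, and Ager was at 0.58 (adjusted p = 0.214).

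Of 15 other alveolar type 2 markers, 1 was higher and 2 were lower in hyperoxia, with a median log2 fold change of -0.05, and 2 were higher with room air 3 left out. Lyz1, a lysozyme, averaged 341 ± 88.7 CPM in room air, against 107 ± 4.30 in hyperoxia, and fell by 1.68 on the log2 scale (SE 0.17, adjusted p = 0.000319), but its near-identical neighbour Lyz2 makes the split of reads between them uncertain. Acoxl, an acyl-CoA oxidase-like gene, averaged 29.6 ± 4.38 CPM against 13.4 ± 2.44, and fell by 1.14 on the log2 scale (SE 0.17, adjusted p = 0.00217). Ctsh, a cathepsin that takes part in SP-B processing, rose from 261 ± 55.3 to 437 ± 72.8 CPM (0.74, adjusted p = 0.019), and was not called without room air 1, room air 2 or hyperoxia 2 (adjusted p = 0.0793, 0.0852 and 0.0538).

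Of 20 genes of surfactant lipid synthesis, 9 were higher and none lower, with a median log2 fold change of 0.35; the count was 5 with room air 1 left out, 4 with room air 2 or with hyperoxia 2 left out, and 3 with hyperoxia 3 left out. Many of these genes are used by other cells too. Scd2, a fatty acid desaturase, had 670.5, 605 and 648 CPM in room air 1 to 3, against 1020.1, 1273 and 1065 CPM in hyperoxia 1 to 3, with groups apart, and rose by 0.80 on the log2 scale (SE 0.14, adjusted p = 0.00405). Agpat2, an acyltransferase of phosphatidic acid synthesis, rose by 0.89 (adjusted p = 0.00572) and Lpin1, a phosphatidate phosphatase, by 0.88 (adjusted p = 0.00243). Chpt1, a cholinephosphotransferase, rose by 0.71 (adjusted p = 0.0256) and was not called without room air 1, room air 2, hyperoxia 2 or hyperoxia 3 (adjusted p = 0.0934, 0.105, 0.0691 and 0.0645).

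Of 15 regulators of alveolar type 2 genes, 5 were higher and none lower, and 3 were higher without room air 2. Etv4, an ETS factor closely related to Etv5, had 3.87, 2.78 and 4.90 CPM in room air 1 to 3, against 12.5, 13.3 and 15.5 CPM in hyperoxia 1 to 3. It rose by 1.83 on the log2 scale (SE 0.23, adjusted p = 0.00098), and Etv4 counts per Etv5 count were 0.0285, 0.0229 and 0.0270 in room air and 0.104, 0.116 and 0.106 in hyperoxia. Foxa2, a forkhead factor of lung epithelium, rose from 20.6 ± 4.52 to 43.8 ± 7.17 CPM (1.09, adjusted p = 0.0031), and the epithelial factors Elf3 and Klf5 rose by 1.15 (adjusted p = 0.00854) and 1.06 (adjusted p = 0.0128). Klf5 was not called without room air 1 or room air 2 (adjusted p = 0.0558 and 0.0556). Nkx2-1, the lung epithelial master factor, named after its values were seen, was at 137 ± 30.4 and 203 ± 27.0 CPM and missed the threshold (0.56, adjusted p = 0.0502).

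Of 14 genes of lamellar body formation and transport 5 were higher and none lower, among them the lysosomal membrane genes Cd63 (0.80, adjusted p = 0.00368) and Lamp2 (0.58, adjusted p = 0.00786) and the vesicle fusion gene Vamp8 (0.73, adjusted p = 0.00426). Only 3 of the 14 were called higher when any 1 of room air 1, room air 2 and hyperoxia 2 was left out. Of 12 genes of surfactant release and clearance 2 were higher and none lower. Prdx6, a peroxiredoxin with phospholipase activity on surfactant lipid, had 145, 139.6 and 160.1 CPM in room air 1 to 3, against 364, 498 and 308 CPM in hyperoxia 1 to 3. It rose by 1.39 on the log2 scale (SE 0.17, adjusted p = 0.00079), and the cholesterol exporter Abca1 rose by 0.76 (adjusted p = 0.0106). Over the 5 lists together 20 of 73 genes were higher, 2 lower and 51 not called, beside 6.77% higher and 4.41% lower over all genes tested. Without room air 1, hyperoxia 2 or hyperoxia 3, 13 were higher, and without room air 2, 12. In the fit scaled to epithelial content, 1 of the 73 was higher and 13 lower, beside 1.14% and 29.7% of all genes tested.

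**Figure D4:**
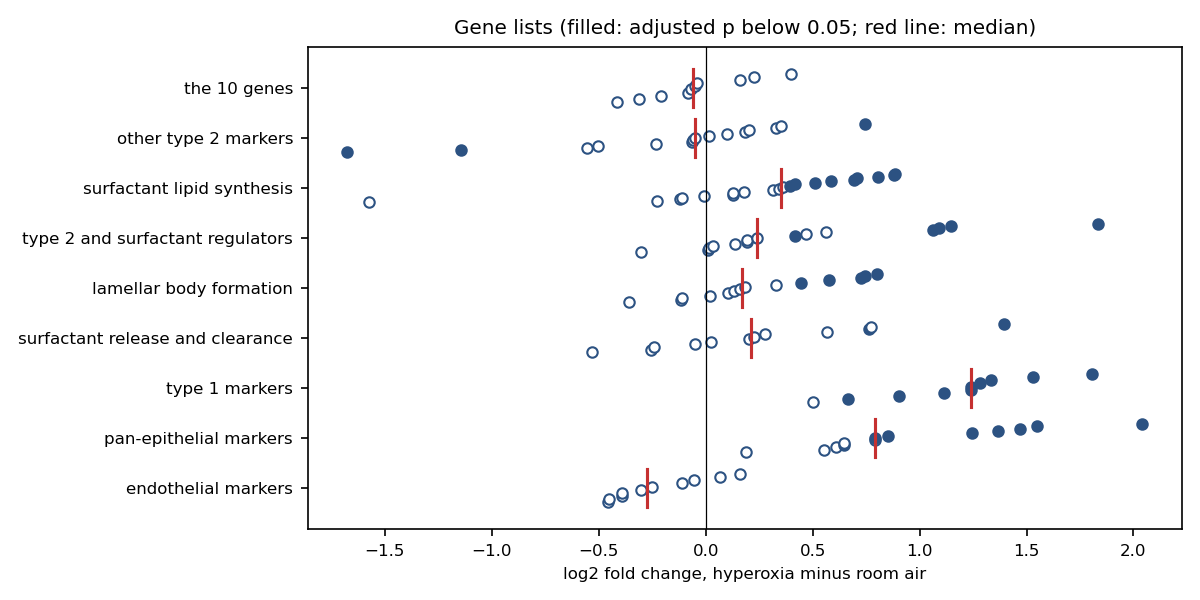
Log2 fold change of each tested gene (x axis), hyperoxia minus room air, by gene list, with filled points for adjusted p below 0.05 and a red line at the list's median. The surfactant genes have a median of -0.06 and the alveolar type 1 markers one of 1.24.

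Of 10 macrophage markers 2 were higher, Marco (2.21, adjusted p = 0.00632) and Cd68 (0.87, adjusted p = 0.0273), where 6.77% of all genes tested were higher. Their median log2 fold change was 0.29, with 8 markers above 0 and 2 below. Those below were Siglecf (-0.44, adjusted p = 0.551) and Ear2 (-0.32, adjusted p = 0.531). The summed level of the 10 ran from 139.1 to 227 CPM in room air, against 216 to 299 CPM in hyperoxia. Marco was not called with no filter on low counts (adjusted p = 0.132), and Cd68 not without room air 1, room air 2, hyperoxia 1 or hyperoxia 2 (adjusted p = 0.0738, 0.11, 0.0621 and 0.0879). The count of macrophage markers called higher was 4 with room air 3 left out, alone or together with hyperoxia 2, and 1 with room air 1, room air 2, hyperoxia 1 or hyperoxia 2 left out. Of 8 airway epithelial markers 2 were higher, Sec14l3 (1.84, adjusted p = 0.000379) and Tppp3 (0.77, adjusted p = 0.00649), and 6 were not called. Of 10 endothelial markers none was called, with a median log2 fold change of -0.28, and 3 were called lower once room air 3 and hyperoxia 2 were both left out. The summed alveolar type 1 level was 2481, 2849.5 and 3548 CPM in room air 1 to 3, against 6106, 7991 and 6281 CPM in hyperoxia 1 to 3. The part of these cell types in the values of the surfactant genes was not tested.

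**Figure D5:**
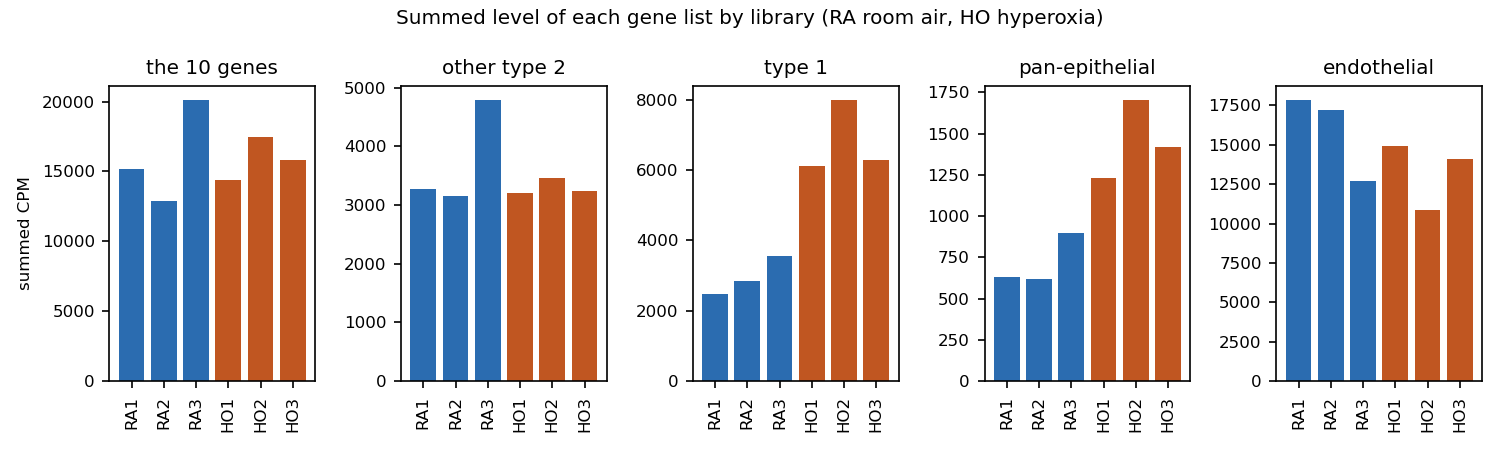
Summed CPM of gene lists (y axis, from 0) in each of the 6 libraries, RA for room air and HO for hyperoxia. The surfactant genes are highest in room air 3 at 20111 CPM, where the endothelial markers are lowest among the room air libraries at 12698 CPM.

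The surfactant genes did not all follow each other across the 6 libraries. As a description over libraries that share depth and composition, the Pearson correlation of each gene's log2 level with the mean of the other 9 was 0.93 for Lpcat1, 0.92 for Napsa and 0.91 for Sftpc, and 0.41 for Slc34a2 and 0.34 for Sftpa1. Of 11215 genes at 5 CPM or more, those most like the mean of the 10 were Prpf38a (0.99), Egfl6 (0.98), Gpm6b (0.97), March1 (0.97) and Tceal9 (0.95). They were followed by Ccl4, Nrd1, Skp1a, Nap1l1 and Grap2, at 0.95 to 0.94. Egfl6 is also in the list of other alveolar type 2 markers. With 6 libraries and 11215 genes, correlations this high can arise by chance, and no test was run. After the group means were taken out the closest were Engase, Prpf38a, Tex10, Plp2 and Haus3, each at 0.99.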

How the data were processed

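The authors deposited raw counts per Ensembl gene for 6 libraries. The tools were HISAT2 2.2.1, Subread 2.0.6, featureCounts and DESeq2 with GRCm39, per the submitters' processing notes. Not given in the sources used here are the annotation release, strand setting and handling of multimapping reads. The sample titles gave groups and replicate numbers. Symbols matched 51948 of 56941 IDs. Genes were kept by filterByExpr (minimum count 10, minimum total 15), scaled by TMM and tested with edgeR's quasi-likelihood method, robust setting (edgeR 4.0.16, limma 3.58.1, DESeq2 1.42.0, R 4.3.3), adjusted by Benjamini and Hochberg over 17072 genes; standard errors and limits (95%) are approximate. Levels per length used exon lengths of GENCODE M21 (GRCm38), another release than the authors'.

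The 10 genes and the lists were chosen with earlier results of these data known. All 10 are named; of each other list, up to 4 called genes by size of change, or the 2 most abundant where none was called. Ratios to Ager, Epcam, Sftpb and Etv5, and Ager, Nkx2-1, Igfbp2, Epcam, Lyz2, Siglecf and Ear2 as named genes, were chosen after values were seen. Likeness took the 10 genes with the highest Pearson correlation. Libraries within a group differed beyond sampling noise, with a smallest chi-square over degrees of freedom of 15.2. Alternatives were other scalings, filters, tests and references, libraries left out and a replicate block.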

Additional observations from a re-analysis of the deposited data

How the results depend on the processing

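The 10 surfactant genes gave 0 higher and 0 lower calls in edgeR's test with DESeq2 size factors, upper-quartile scaling, library size only, no filter or the 1 CPM filter, and in limma-voom. DESeq2 called 1 lower, beside 7.28% of all genes. Leaving out hyperoxia 2 and room air 3 together gave 2 higher, beside 5.76% of all genes. Leaving out 1 library gave 0 to 2 higher and 0 lower. The count of 2 came without room air 3, where 6.23% of all genes were higher. Genes called lower over the whole table numbered 753, and 1243 with no filter and 1243 with DESeq2; leaving out 1 library gave 681 to 1095 higher and 376 to 749 lower. The 5 pathway lists gave 5 lower with no filter and 5 with DESeq2, and 12 to 20 higher and 2 to 3 lower with 1 library left out. Per epithelial RNA, 9 of the 10 were lower with all pan-epithelial markers as the reference (69.4% of all genes), 0 with Epcam alone (15.8%), and 0 to 5 with 1 library left out (5.28% to 48.2%). The sign of small fold changes turned in some fits. Without hyperoxia 2 and room air 3 together the log2 fold change was 0.042 for Sftpc, 0.090 for Napsa, 0.049 for Lpcat1, 0.031 for Etv5, -0.020 for Col3a1 and 0.089 for Ptprc. With 1 library left out it ran from -0.24 to 0.15 for Sftpc, -0.17 to 0.13 for Napsa, -0.16 to 0.078 for Lpcat1, -0.053 to 0.37 for Col1a1, -0.089 to 0.25 for Col3a1, -0.33 to 0.15 for Ms4a1 and -0.42 to 0.22 for Ptprc. The cause of these changes was not tested, and fits with 1 library left out use fewer samples. With the replicate block, 1395 genes were called and 0 of the 10. Same-numbered libraries correlated at 0.11, -0.04 and -0.09, and differently numbered ones at -0.12 to 0.15. These values cannot show whether same-numbered libraries shared a litter, day or batch. Per epithelial RNA with the block, Etv5 was not called (adjusted p = 0.0608).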
